A study of Rattus norvegicus with 6 samples.

Results

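The 44 genes described here mark or build blood vessels: endothelial cells, which line them, the growth factors and receptors of vessel sprouting, and the smooth muscle cells and pericytes (mural cells) that wrap them. They were taken by symbol from the 29884 rows of a table of counts per gene, in which all 44 had a row. The tissue was sciatic nerve of wild type rats after chronic constriction injury (CCI), a model of neuropathic pain made by tying loose ligatures round the nerve. RNA of 3 injured nerves left untreated was compared with RNA of 3 injured nerves treated with PLLA-PCL-RVC, a piezoelectric polymer nerve conduit with the local anaesthetic ropivacaine (RVC). The question is which genes the conduit-treated injured nerves express at another level than injured nerves without it. Both groups carry the injury, and uninjured nerve or a conduit without drug is not analysed here. The labels do not give the rats' strain, age or sex, the time after injury, or whether each library is 1 animal, so a p-value here reflects how far single libraries of a group vary, and that variation may be technical.

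Vessels of a peripheral nerve run in its outer sheath and, as a tight capillary bed, among the fibres, where the endothelium forms the blood-nerve barrier. Sprouting is driven by VEGF ligands acting on the receptor tyrosine kinases Flt1, Kdr and Flt4. Angiopoietins acting on the receptor Tek (Tie2) then settle or loosen the new vessel, and mural cells recruited to it carry contractile actin and myosin. After nerve injury new vessels grow into the damaged stretch and the barrier leaks.

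Values are CPM, counts scaled to a common library size by TMM, which aligns libraries on the bulk of their genes, and are given for replicates 1, 2 and 3 in that order. Log2 fold changes are conduit minus untreated with their standard error (SE), and adjusted p is the Benjamini-Hochberg value of edgeR's two-sided quasi-likelihood test over all 15464 genes tested. A gene was called higher or lower at an adjusted p under 0.05. Levels of different genes are compared as FPKM, fragments per kilobase of gene, on the authors' scale by library total. Total counts ran from 38401951 to 42225086 per library. The 10 most abundant genes took 7.41 to 9.05% of counts in untreated libraries and 21.1 to 23.8% in conduit libraries, so the choice of scaling moves every gene: with library totals alone the median log2 fold change over all genes was -0.43, against -0.043 after TMM. With TMM 3711 of all genes tested were higher and 4049 lower, and with library totals 2291 and 6554. The labels' 5 batch numbers are split between the groups, so a difference common to the batches of a group cannot be told apart from treatment.

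Of the 44 genes, 43 passed the filter on low counts and 18 of them fell and 3 rose in conduit nerves, while 22 did not pass the test. These 21 were 48.8% of those tested, beside 50.2% called among all genes. The share lower was 41.9%, beside 26.2% of all genes tested, and the share higher was 6.98%, beside 24.0%. The median log2 fold change of the 43 was -0.65, beside -0.043 over all genes. A drop of at least 2-fold was called for 15 of the 43, beside 15.1% of all genes, and a rise of at least 2-fold for 2, beside 14.6%. The groups' libraries did not overlap in 23 of the 43, beside 61.7% of all genes. With library totals 27 of the genes were lower and 2 higher, beside 6554 and 2291 of all 15464 genes. The tissue was bulk nerve, where fewer cells of a type and less RNA per cell cannot be told apart. Defining genes of endothelium, of sprouting vessels and of smooth muscle were present in every library, Pecam1 at 101 CPM or more, Acta2 at 355 CPM or more and Aplnr at 6.35 CPM or more.

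**Figure D1:**
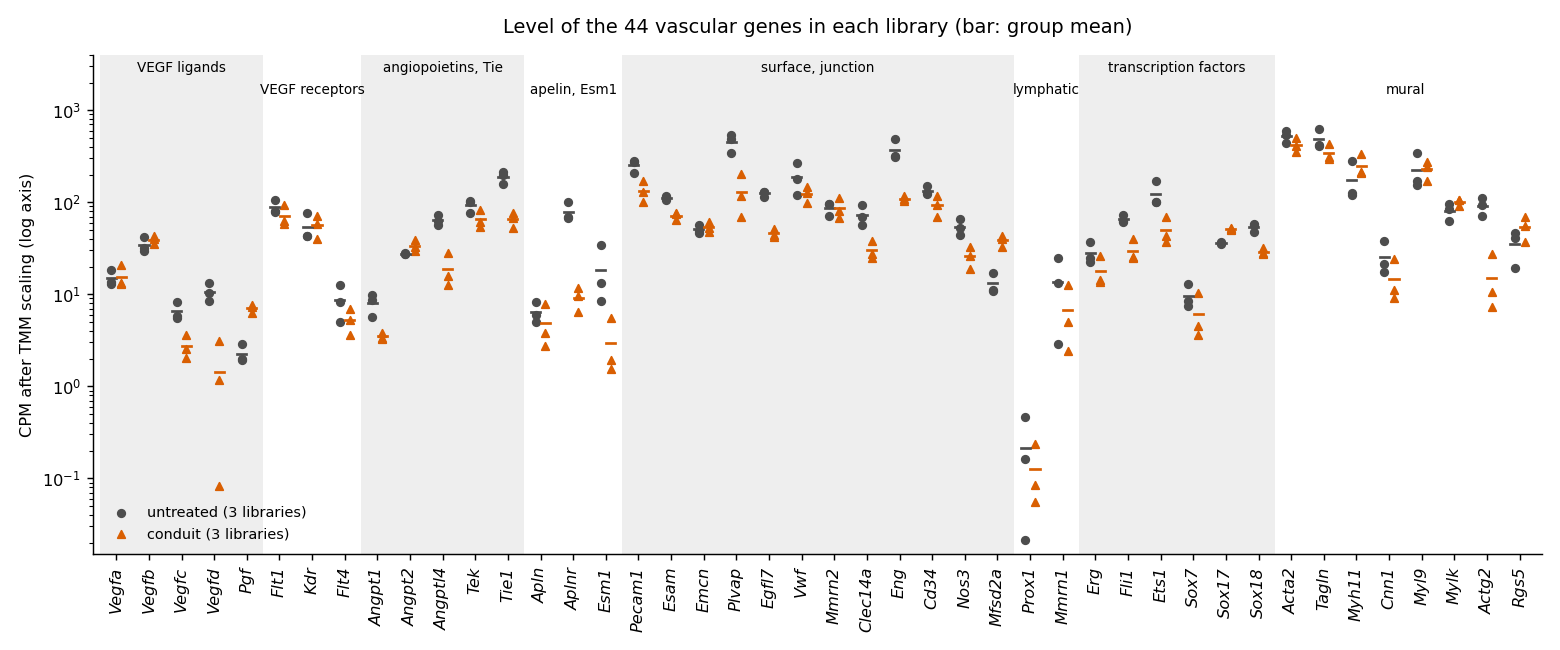
CPM after TMM scaling (log axis) of the 44 genes in each of 3 untreated (grey circles) and 3 conduit libraries (orange triangles), grouped by role, with a bar at each group mean. Conduit libraries lie below all untreated libraries for Aplnr, Tie1, Plvap and Eng, above them for Pgf, Mfsd2a and Sox17, and among them for Acta2, Kdr and Emcn.

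Many endothelial genes are switched on through sites for ETS factors, a family of transcription factors to which the members Erg, Fli1 and Ets1 belong, so the promoters were searched for the ETS core AGGAAG. RefSeq promoters of the GRCr8 build were found for 27 of the 44 genes by symbol, and the 250 bases before the gene start were searched on both strands. The 6 stretches of 80 bases shown here, with the motif or its reverse complement CTTCCT in capitals, come from 4 genes that fell (Tie1, Egfl7, Plvap and Eng) and from 2 that did not pass the test (Emcn and Mmrn2).
Tie1 (chr5:137305000-137305079, - strand): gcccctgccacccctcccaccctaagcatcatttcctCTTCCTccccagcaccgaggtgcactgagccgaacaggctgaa
Egfl7 (chr3:29805474-29805553, + strand): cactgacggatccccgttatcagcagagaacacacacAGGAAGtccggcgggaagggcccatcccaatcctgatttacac
Plvap (chr16:18231318-18231397, - strand): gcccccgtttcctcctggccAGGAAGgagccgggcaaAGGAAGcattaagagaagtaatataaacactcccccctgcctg
Eng (chr3:36332160-36332239, + strand): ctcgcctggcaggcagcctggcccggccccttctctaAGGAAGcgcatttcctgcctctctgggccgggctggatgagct
Emcn (chr2:228564340-228564419, + strand): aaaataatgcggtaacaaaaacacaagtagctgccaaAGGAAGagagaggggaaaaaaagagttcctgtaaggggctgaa
Mmrn2 (chr16:9712125-9712204, + strand): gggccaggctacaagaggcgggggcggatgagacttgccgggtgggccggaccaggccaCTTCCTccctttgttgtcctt
A match stood before 15 of the 27 genes (55.6%), beside 29.5% of the 33469 promoters in the table. A gene counted once if any of its promoters had a match, while the table was counted by promoter. The shares are thus not strictly of the same unit. Of genes with a promoter found, a match was present for 7 of the 11 that fell and 8 of the 15 that did not pass. The 1 such gene that rose had no match. The motif thus stood in promoters of genes that fell and of genes that did not pass. Such a match is a description of the sequence and not evidence that a factor binds there.

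The 5 VEGF ligands did not move together. Vegfc and Vegfd, which act on the lymphatic receptor Flt4 and, when processed, on Kdr, were both lower in conduit nerves, whereas Pgf, placental growth factor, a ligand of Flt1, was higher. Vegfd went from 8.44, 10.3 and 13.1 CPM in untreated libraries to 0.0825, 1.16 and 3.09 CPM in conduit libraries (log2 fold change -2.87 ± 0.88 SE, adjusted p = 0.0289). The groups did not overlap, but the conduit libraries spread widely, from 3 counts in replicate 1 to 118 in replicate 3. The call was lost without untreated replicate 2 (adjusted p = 0.0530), untreated replicate 3 (0.0674) or conduit replicate 2 (0.0934), and the log2 fold change was -4.06 without conduit replicate 3. Vegfc fell from 5.48, 8.18 and 5.87 CPM to 2.03, 2.52 and 3.59 CPM (-1.26 ± 0.30, adjusted p = 0.0107). Pgf rose from 1.93, 1.98 and 2.88 CPM to 6.32, 7.58 and 7.28 CPM (1.64 ± 0.25, adjusted p = 0.00161), with every conduit library above every untreated one. Vegfa, the main driver of sprouting, was at 12.9, 13.7 and 18.2 CPM in untreated and 12.8, 13.1 and 20.7 CPM in conduit libraries (0.06 ± 0.24, adjusted p = 0.848), so the groups covered the same range. Vegfb, which binds Flt1, was the ligand with the highest level per length in both groups, at 15.7 ± 2.75 FPKM untreated and 13.8 ± 1.75 FPKM conduit (SD, n = 3), and its log2 fold change was 0.19 ± 0.16 (adjusted p = 0.371).

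None of the 3 VEGF receptors passed the test. Kdr, the main signalling receptor, was at 43.1, 77.1 and 42.9 CPM in untreated and 58.3, 39.6 and 71.6 CPM in conduit libraries (0.05 ± 0.30, adjusted p = 0.894). Flt1, which binds VEGF tightly and can act as a decoy, was at 80.9, 107 and 78.1 CPM against 58.4, 62.6 and 92.2 CPM (-0.32 ± 0.21, adjusted p = 0.247). The groups overlapped for both. Flt4 was lower on average, at 5.26 ± 1.64 CPM in conduit and 8.65 ± 3.83 CPM in untreated nerves, and passed with untreated replicate 1 left out (-0.99, adjusted p = 0.0459) but not with all libraries (adjusted p = 0.155). With library totals both Flt1 (-0.70, adjusted p = 0.0366) and Flt4 (-1.11, adjusted p = 0.0476) were lower. The co-receptors that present VEGF to these kinases, which are not among the 44 genes, went apart: Nrp1 (-1.34 ± 0.31, adjusted p = 0.0101) fell from 146 ± 36.2 to 57.6 ± 24.0 CPM, and Nrp2 (0.68 ± 0.14, adjusted p = 0.00560) rose from 83.6 ± 11.8 to 134 ± 1.91 CPM. Nrp2 did not pass with library totals (0.29, adjusted p = 0.132). Neuropilins are also expressed by neurons, Schwann cells and leukocytes.

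In the angiopoietin system, Tie1, the orphan partner of Tek, showed the firmest drop. It went from 157, 216 and 196 CPM to 52.1, 68.1 and 75.5 CPM (-1.54 ± 0.19, adjusted p = 0.000615), so that the highest conduit library was below the lowest untreated one by a wide margin. Tek itself was at 76.8, 102 and 101 CPM against 53.5, 61.3 and 81.9 CPM and did not pass (-0.51 ± 0.19, adjusted p = 0.0622), since conduit replicate 3 reached into the untreated range. It passed without untreated replicate 1 (-0.63, adjusted p = 0.0382) or conduit replicate 3 (-0.66, adjusted p = 0.0282) and with library totals (-0.89, adjusted p = 0.00973).

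Angpt1, the ligand of mural and other mesenchymal cells that activates Tek and stabilises vessels, fell from 5.73, 9.88 and 8.61 CPM to 3.30, 3.36 and 3.82 CPM (-1.21 ± 0.26, adjusted p = 0.00654). Angpt2, made by endothelium and able to block that signal, was at 27.4, 27.4 and 28.3 CPM in untreated and 29.6, 32.9 and 38.6 CPM in conduit libraries. All conduit libraries were slightly above the untreated ones, but the difference did not pass (0.28 ± 0.13, adjusted p = 0.109) and its sign changed with library totals (-0.099). Angptl4, related in sequence to the angiopoietins and an inhibitor of lipoprotein lipase, fell from 63.1, 56.6 and 72.9 CPM to 12.6, 15.97 and 28.4 CPM (-1.76 ± 0.30, adjusted p = 0.00244). Fat cells also make Angptl4, and summed fat cell markers were highest in the same library as its highest conduit value, at 1521 CPM in conduit replicate 3 against 309.6 to 748 CPM in the other 5 libraries. The part of fat cells in the Angptl4 values was not tested.

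Aplnr, the G protein-coupled receptor for apelin found on growing and venous endothelium, fell far. It was at 66.6, 100.2 and 69.9 CPM in untreated libraries and at 6.35, 9.50 and 11.7 CPM in conduit libraries (-3.10 ± 0.27, adjusted p = 0.000161). Its ligand gene Apln, a marker of the tip cells that lead a sprout, was low in both groups, at 5.99, 8.26 and 4.95 CPM against 3.79, 2.77 and 7.94 CPM, and did not pass (-0.40 ± 0.41, adjusted p = 0.446). Esm1, endocan, a secreted proteoglycan of tip cells, fell from 8.53, 34.0 and 13.2 CPM to 1.92, 1.53 and 5.47 CPM (-2.64 ± 0.66, adjusted p = 0.0135). Untreated replicate 2 held the highest Esm1 value by far, and the log2 fold change was -1.86 without it and -3.39 without conduit replicate 3. All 15 alternative settings kept the calls of Aplnr and Esm1.

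Among 12 genes of the endothelial surface, junctions and secreted products, 7 fell, 1 rose and 4 did not pass. Of all genes tested 26.2% were lower and 24.0% higher. Plvap, which forms the diaphragms of fenestrae and caveolae and marks leaky vessels, had the highest level per length of the endothelial genes among the 44 in both groups, at 268 ± 65.4 FPKM untreated and 59.0 ± 32.9 FPKM conduit. In CPM it was at 342, 533 and 488 against 69.7, 116 and 205 (-1.80 ± 0.39, adjusted p = 0.00692), and the conduit libraries spread widely while staying below all untreated ones. Eng, endoglin, the TGF-beta co-receptor of dividing endothelium, fell from 317, 485 and 313 CPM to 103, 116 and 108 CPM (-1.77 ± 0.20, adjusted p = 0.000451). Egfl7, a secreted factor of endothelial cells, fell from 128, 115 and 130.1 CPM to 42.1, 44.2 and 51.7 CPM (-1.44 ± 0.13, adjusted p = 0.000175), with narrow groups far apart.

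The cell surface lectin Clec14a (-1.29 ± 0.23) and the nitric oxide synthase Nos3 (-1.07 ± 0.23) also fell. Pecam1, the junctional adhesion molecule CD31, went from 207, 274 and 280.1 CPM to 101, 128 and 169 CPM (-0.93 ± 0.22, adjusted p = 0.0104). Esam, another junctional adhesion molecule, went from 113, 105 and 118 CPM to 63.6, 76.3 and 73.9 CPM (-0.65 ± 0.12, adjusted p = 0.00405). Both groups were separate for each of these 4 genes, with drops smaller than those of Aplnr or Plvap.

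Endomucin (Emcn), a sialomucin of capillary and venous endothelium, was at 49.2, 46.7 and 56.5 CPM in untreated and 51.9, 47.2 and 61.6 CPM in conduit libraries (0.08 ± 0.14, adjusted p = 0.679). Mmrn2, a matrix protein of vessel walls, was at 71.4, 94.6 and 94.6 CPM against 67.2, 79.7 and 112 CPM (-0.01 ± 0.21, adjusted p = 0.980). For these endothelial genes the conduit values lay across the untreated range. Vwf, von Willebrand factor, was at 120.0, 265 and 181 CPM against 98.1, 148 and 127 CPM (-0.60 ± 0.29, adjusted p = 0.126), and it passed without untreated replicate 1 (-0.84, adjusted p = 0.0262) or with library totals (-0.999, adjusted p = 0.0270). Cd34, a sialomucin of endothelium and of fibroblasts, was at 123, 126 and 149 CPM against 69.8, 94.3 and 118 CPM (-0.49 ± 0.20, adjusted p = 0.0786), and it passed without conduit replicate 3 (-0.65, adjusted p = 0.0334) or with library totals (-0.87, adjusted p = 0.0104). Mfsd2a, a lipid transporter that restrains vesicle traffic across barrier endothelium, was the gene of this group that rose, from 11.3, 10.97 and 17.1 CPM to 39.6, 43.5 and 32.9 CPM (1.56 ± 0.21, adjusted p = 0.000934).

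**Figure D2:**
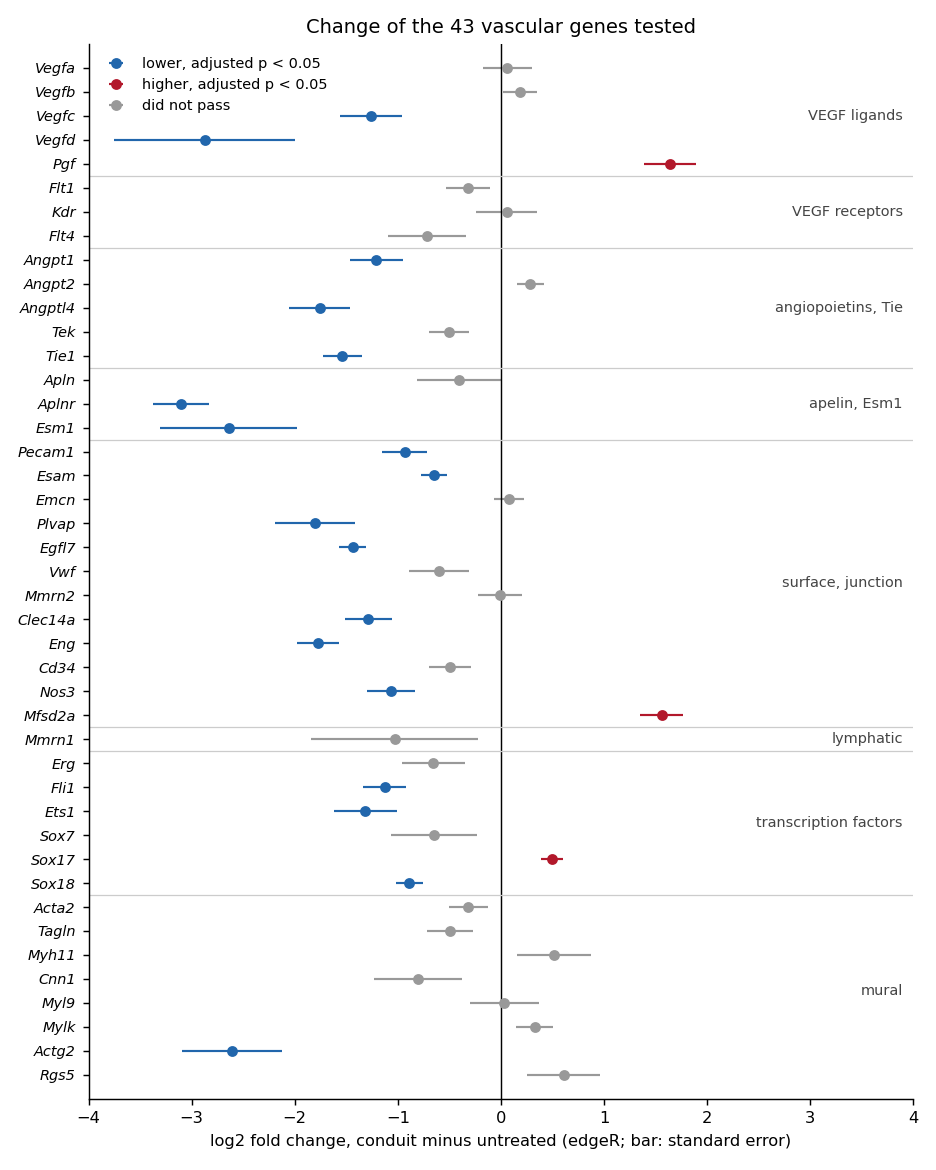
Log2 fold change, conduit minus untreated, of the 43 genes tested, grouped by role (bars are SE, blue lower and red higher at an adjusted p under 0.05, grey not passing). Aplnr lies farthest to the left at -3.10, Pgf, Mfsd2a and Sox17 are the genes called higher, and of 8 mural genes only Actg2 was called.

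Of the lymphatic genes, Prox1 was sparse and Mmrn1 varied widely between libraries. Prox1, the master regulator of lymphatic endothelium, had 1, 8 and 20 counts in untreated and 2, 3 and 9 counts in conduit libraries and did not enter the test. Mmrn1, a granule protein of lymphatic endothelium and platelets, was at 2.90, 13.2 and 25.0 CPM against 4.98, 2.40 and 12.7 CPM (-1.03 ± 0.81, adjusted p = 0.319), and was at -0.27 without untreated replicate 3. Of 7 lymphatic markers tested outside the 44 genes 3 fell and 1 rose, beside 26.2% and 24.0% of all genes tested. Those that fell were Lyve1 (-2.79 ± 0.35), a hyaluronan receptor that tissue macrophages express as well, the mucin-like protein Pdpn (-2.79 ± 0.17), which fibroblasts and perineurial cells can also express, and the chemokine Ccl21 (-1.98 ± 0.68, adjusted p = 0.0430), whose groups overlapped. The call of Ccl21 was lost without untreated replicate 2 or 3 (adjusted p = 0.0763 and 0.126) and, on the conduit side, without replicate 1 or 2 (0.110 and 0.0722), and its log2 fold change was -2.65 without conduit replicate 3. Per length Ccl21, at 139 FPKM untreated and 27.5 FPKM conduit, and Pdpn, at 114 and 12.7 FPKM, had the highest untreated levels of the list. Nfatc1, a transcription factor of lymphatic valves and of other cells, rose (1.06 ± 0.19), and Reln, the marker with the highest CPM, did not pass (-0.08 ± 0.22).

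Of 6 transcription factors 3 fell, 1 rose and 2 did not pass, where 26.2% of all genes tested were lower and 24.0% higher. Fli1 went from 62.0, 72.2 and 61.8 CPM to 24.5, 25.2 and 39.9 CPM (-1.13 ± 0.21, adjusted p = 0.00356) and Ets1 from 99.7, 171 and 100.4 CPM to 37.0, 42.9 and 69.1 CPM (-1.32 ± 0.30, adjusted p = 0.00942). Both are ETS factors that leukocytes express too, and in the same libraries summed T cell markers went from 177 to 265 CPM in untreated nerves to 37.8 to 72.6 CPM in conduit nerves, and summed macrophage markers from 2910 to 3521 CPM to 428 to 761 CPM. The T cell sum was mostly Cd4 and Cd8a, which other leukocytes can also express, while Cd3e was at 2.24 to 3.40 CPM untreated and 0.498 to 0.763 CPM conduit. The part of these cells in the Fli1 and Ets1 values was not tested. Erg, an ETS factor of adult tissue found mainly in endothelium, was at 22.6, 37.4 and 24.6 CPM against 14.2, 13.5 and 26.0 CPM and did not pass (-0.66 ± 0.31, adjusted p = 0.112). It passed without conduit replicate 3 (-0.99, adjusted p = 0.0236) and with library totals (-1.04, adjusted p = 0.0306).

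The SoxF factors, which act together in endothelial fate, went apart. Sox18 fell from 47.1, 58.2 and 56.0 CPM to 27.7, 27.9 and 31.7 CPM (-0.89 ± 0.13, adjusted p = 0.00135). Sox17, the member linked to arterial identity, rose from 34.8, 37.4 and 36.5 CPM to 49.8, 52.7 and 51.0 CPM (0.50 ± 0.10, adjusted p = 0.00621), but with library totals it was at 0.11 (adjusted p = 0.428). Sox7 was at 9.60 ± 2.87 CPM untreated and 6.11 ± 3.60 CPM conduit (-0.65 ± 0.42, adjusted p = 0.233), and it passed as lower without conduit replicate 3 (-1.21, adjusted p = 0.0244).

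The endothelial genes differed in how they changed. Of 12 pan-endothelial members (Pecam1, Tie1, Tek, Kdr, Flt1, Erg, Esam, Egfl7, Clec14a, Mmrn2, Emcn and Sox18) 6 fell and the other 6 did not pass. Of all genes tested 26.2% were lower. Each endothelial gene was therefore also expressed per 100 CPM of the sum of these 12, a ratio within each library that no scaling between libraries can move. The sum was 1054, 1326 and 1247 CPM in untreated and 615, 676 and 885 CPM in conduit libraries, with no overlap. The group means differed by -0.74 on the log2 scale, or by -1.12 with library totals. Per 100 CPM of that sum, 10 of 27 endothelial members were lower in every conduit library than in any untreated library and 8 were higher. On the same measure 62.4% of all genes had no overlap. The 12 genes of the sum are among the 27 and their shares are tied together, so these counts are not of separate changes.

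Per 100 CPM of the sum, Aplnr was at 6.32, 7.56 and 5.60 CPM in untreated libraries and 1.03, 1.40 and 1.33 CPM in conduit libraries. Plvap was at 32.5, 40.2 and 39.1 CPM against 11.3, 17.1 and 23.2 CPM, and Tie1 at 14.9, 16.3 and 15.7 CPM against 8.48, 10.1 and 8.53 CPM. These 3 genes fell further than the endothelial sum did. In the other direction, Angpt2 was at 2.60, 2.06 and 2.27 CPM against 4.82, 4.86 and 4.36 CPM, Mfsd2a at 1.07, 0.827 and 1.37 CPM against 6.44, 6.43 and 3.72 CPM, and Sox17 at 3.30, 2.82 and 2.92 CPM against 8.10, 7.80 and 5.76 CPM. Mmrn2, Emcn, Kdr, Flt1 and Tek were the other genes higher per endothelial sum in every conduit library. None of them passed the test in CPM. They and Tie1 are themselves part of the sum. As some genes of the sum fall, the shares of the others rise without a rise in their own level. These ratios were chosen with the values known and are given with no test.

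**Figure D3:**
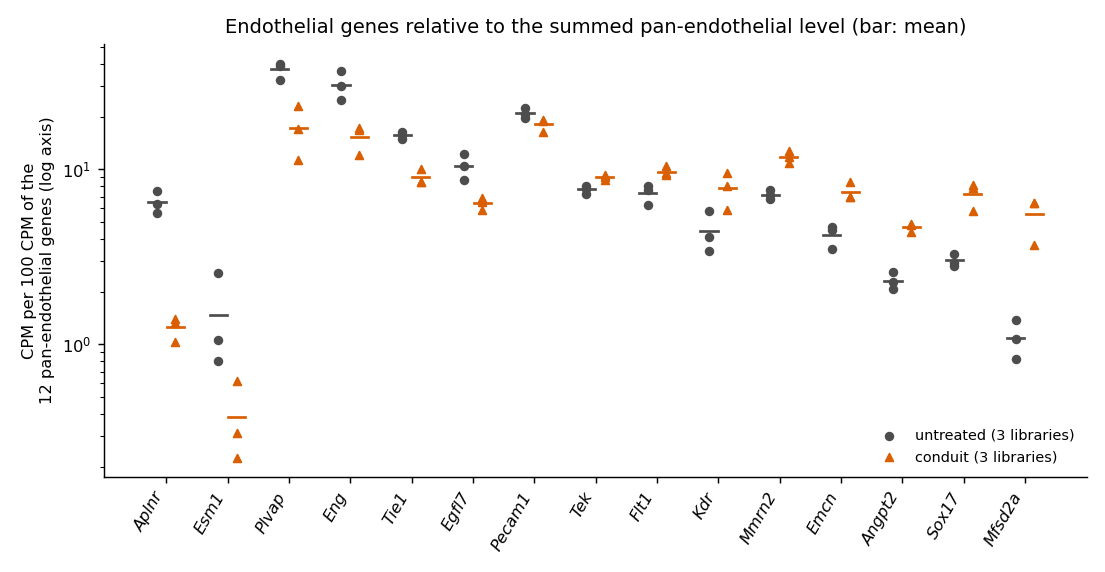
CPM of 15 endothelial genes per 100 CPM of the 12 pan-endothelial genes (log axis) in each untreated (grey circles) and conduit library (orange triangles), with a bar at the mean. Aplnr is at 5.60 to 7.56 in untreated and 1.03 to 1.40 in conduit libraries, while Angpt2, Sox17 and Mfsd2a lie higher in all conduit libraries.

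The contractile genes of smooth muscle and pericytes mostly did not pass. Acta2, smooth muscle alpha-actin, was at 443, 533 and 601 CPM in untreated and 355, 504 and 409 CPM in conduit libraries (-0.31 ± 0.19, adjusted p = 0.196). Tagln, the actin-binding protein SM22, was at 422, 411 and 619 CPM against 308, 429.6 and 295 CPM (-0.49 ± 0.23, adjusted p = 0.108). With library totals both were lower (-0.71, adjusted p = 0.0144 for Acta2 and -0.88, adjusted p = 0.0103 for Tagln). They were the genes with the highest level per length among the 44 in both groups, Tagln at 525 ± 122 and Acta2 at 431 ± 69.1 FPKM in untreated nerves.

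Myh11, the smooth muscle myosin heavy chain, was at 120.3, 127 and 277 CPM against 206, 331 and 214 CPM (0.52 ± 0.36, adjusted p = 0.264). Untreated replicate 3 stood above the other untreated libraries, and without it Myh11 passed as higher (1.02, adjusted p = 0.0162). The myosin light chain Myl9 (0.03 ± 0.34) and the kinase Mylk (0.33 ± 0.18), which phosphorylates it, had overlapping groups. Rgs5, a G protein regulator of pericytes, was at 19.2, 40.8 and 46.8 CPM against 55.6, 37.3 and 70.0 CPM (0.61 ± 0.35, adjusted p = 0.188). Calponin, Cnn1, was at 25.7 ± 11.1 CPM untreated and 14.7 ± 8.07 CPM conduit (-0.80 ± 0.43, adjusted p = 0.156) and passed as lower without conduit replicate 2 (-1.32, adjusted p = 0.0318) or with library totals (-1.20, adjusted p = 0.0419).

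Actg2, the gamma-actin best known from visceral smooth muscle, was the contractile gene that fell. It went from 71.3, 94.0 and 111 CPM to 10.5, 27.6 and 7.28 CPM (-2.60 ± 0.48, adjusted p = 0.00368), and was at -3.34 without conduit replicate 2. Per 100 CPM of the 7 contractile genes (all mural members but Rgs5) Actg2 was at 5.46, 6.60 and 5.30 CPM in untreated and 0.863, 1.62 and 0.603 CPM in conduit libraries, while Myh11 was at 9.20, 8.95 and 13.3 CPM against 16.9, 19.5 and 17.7 CPM. Actg2 and Acta2 encode nearly the same protein, and whether any reads were assigned to the wrong gene of the pair in counting was not tested. Summed, the contractile genes were at 1307, 1424 and 2085 CPM untreated and 1219, 1699 and 1208 CPM conduit. The log2 ratio of the means was -0.22, or 0.011 without untreated replicate 3 and -0.61 with library totals.

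A wider list of 40 endothelial genes outside the 44 gave 13 lower, 3 higher and 23 that did not pass of 39 tested. Of all genes tested 26.2% were lower and 24.0% higher. With library totals the list gave 18 lower and 0 higher, beside 6554 and 2291 of all 15464 genes. Its median log2 fold change after TMM was -0.30. The largest drop was that of Selp, P-selectin, an adhesion molecule that captures leukocytes, from 66.3, 95.8 and 45.7 CPM to 4.98, 3.79 and 8.72 CPM (-3.57 ± 0.39, adjusted p = 0.000398). Sele, E-selectin, of the same function, fell too (-3.20 ± 0.41, adjusted p = 0.000712). The transcription factor Lyl1 (-2.60 ± 0.24), found in endothelium and blood cells, and the arterial gap junction gene Gja5 (-1.81 ± 0.19) were among those with the smallest adjusted p. The 3 that rose were Cldn5, a tight junction protein (1.08 ± 0.28), the guidance receptor Robo4 (0.71 ± 0.15) and Nrp2, and none of them passed with library totals (adjusted p = 0.0554 for Cldn5 and 0.0922 for Robo4). Cdh5, VE-cadherin, the defining adhesion molecule of endothelial junctions, was at 117, 188 and 149 CPM against 104, 115 and 191 CPM (-0.15 ± 0.27, adjusted p = 0.678), so its groups overlapped where those of Pecam1 did not.

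Of 16 genes known from tip cells, again outside the 44, 5 fell and 1 rose, beside 26.2% and 24.0% of all genes tested. The other 10 did not pass, and the median of the 16 was 0.066. Those that fell were the urokinase receptor Plaur (-3.10 ± 0.25), the chemokine receptor Cxcr4 (-2.36 ± 0.41), the growth factor carrier Igfbp3 (-1.43 ± 0.23), adrenomedullin Adm (-0.92 ± 0.27) and the semaphorin receptor Plxnd1 (-0.67 ± 0.19). Leukocytes also express Plaur and Cxcr4. The call of Adm needed untreated replicates 2 and 3 and conduit replicate 2 (without each, adjusted p = 0.0640, 0.0562 and 0.0694), and that of Plxnd1 needed conduit replicates 1 and 2 (0.0790 and 0.0927). The basement membrane gene Nid1 rose (0.99 ± 0.25) but not with library totals (adjusted p = 0.0789) or without conduit replicate 2 (0.05001). Dll4, the Notch ligand of tip cells, which the wider endothelial list also holds, was at 9.52 ± 1.55 CPM untreated and 10.1 ± 4.25 CPM conduit (0.09 ± 0.31).

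Of 14 blood-nerve barrier genes tested (Cldn5 among them again), 11 rose and 1 fell, beside 24.0% and 26.2% of all genes tested. The other 2 did not pass, and the median of the 14 was 1.11. These counts are after TMM only. With library totals, where Cldn5 did not pass, 2291 of all 15464 genes were higher and 6554 lower. Mal (3.99 ± 0.31), a membrane protein that is also made in quantity by myelinating Schwann cells, rose from 265, 166 and 367 CPM to 4533, 4244 and 3852 CPM. The glucose transporter Slc2a1 (1.24 ± 0.15), caveolin Cav1 (1.38 ± 0.18) and the efflux pump Abcb1a (1.54 ± 0.20) rose as well. Slc2a1 and tight junction genes are also expressed by the perineurium, the sheath around nerve bundles, and Cav1 by Schwann cells. In the same libraries summed Schwann cell and myelin markers were at 5016 to 10135 CPM in untreated and 66475 to 82113 CPM in conduit nerves. Summed perineurial markers were at 352 to 563 CPM against 2045 to 2488 CPM. The largest part of the perineurial sum was Itgb4, at 165 to 315 CPM untreated and 1467 to 1808 CPM conduit. Slc2a1 is itself among the perineurial markers summed. What Schwann cells and perineurial cells add to the barrier genes, and to Mfsd2a, was not tested. Tfrc, the transferrin receptor, which dividing cells and macrophages also carry, was the gene that fell (-1.04 ± 0.28), and it did not pass without conduit replicate 1 or 2 (adjusted p = 0.0650 and 0.0640).

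In a list of 30 further mural genes 8 rose, 4 fell and 18 did not pass, with a median of 0.12. Of all genes tested 24.0% rose and 26.2% fell, so the share of mural genes that rose was close to that of all genes. With library totals 6 of the list rose and 6 fell, beside 2291 and 6554 of all 15464 genes. The contractile regulators Smtn, smoothelin (1.95 ± 0.20), and Pln, phospholamban, an inhibitor of the calcium pump (2.34 ± 0.33), rose, as did Ntrk3 (1.94 ± 0.25), a neurotrophin receptor. Which cells of the bulk nerve made these transcripts was not tested. Smtn went from 59.4, 47.2 and 73.6 CPM to 216, 269 and 209 CPM. The pericyte genes Pdgfrb (0.11 ± 0.13) and Notch3 (-0.08 ± 0.27) did not pass, while Cspg4, the NG2 proteoglycan of pericytes and of some glia, rose (0.79 ± 0.15). The 4 that fell were Mef2c (-0.86 ± 0.13), Kcnj8 (-0.61 ± 0.19), Tpm2 (-1.57 ± 0.44) and Des (-2.45 ± 0.79).

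Des and Tpm2 are also skeletal muscle genes. They were at 1149.8 and 688 CPM in untreated replicate 1, where summed skeletal muscle markers reached 12755 CPM, while those markers summed to 89.0 and 9.32 CPM in the other untreated libraries and reached at most 11.4 CPM with the conduit. Without untreated replicate 1, Des was at -0.80 (adjusted p = 0.0130) and Tpm2 at -0.90 (adjusted p = 0.0230). The Des call failed when any 1 conduit library was left out (adjusted p = 0.0825, 0.0972 and 0.101), that of Tpm2 without conduit replicate 1 or 3 (0.0709 and 0.0686), and that of Kcnj8 needed replicates 1 and 2 of both groups (0.0621 and 0.0746 without the untreated ones, 0.109 and 0.119 without the conduit ones). Without untreated replicate 1 the 44 genes gave 21 lower and 3 higher, beside 3602 and 3328 of all 15716 genes, so their counts did not rest on it.

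**Figure D4:**
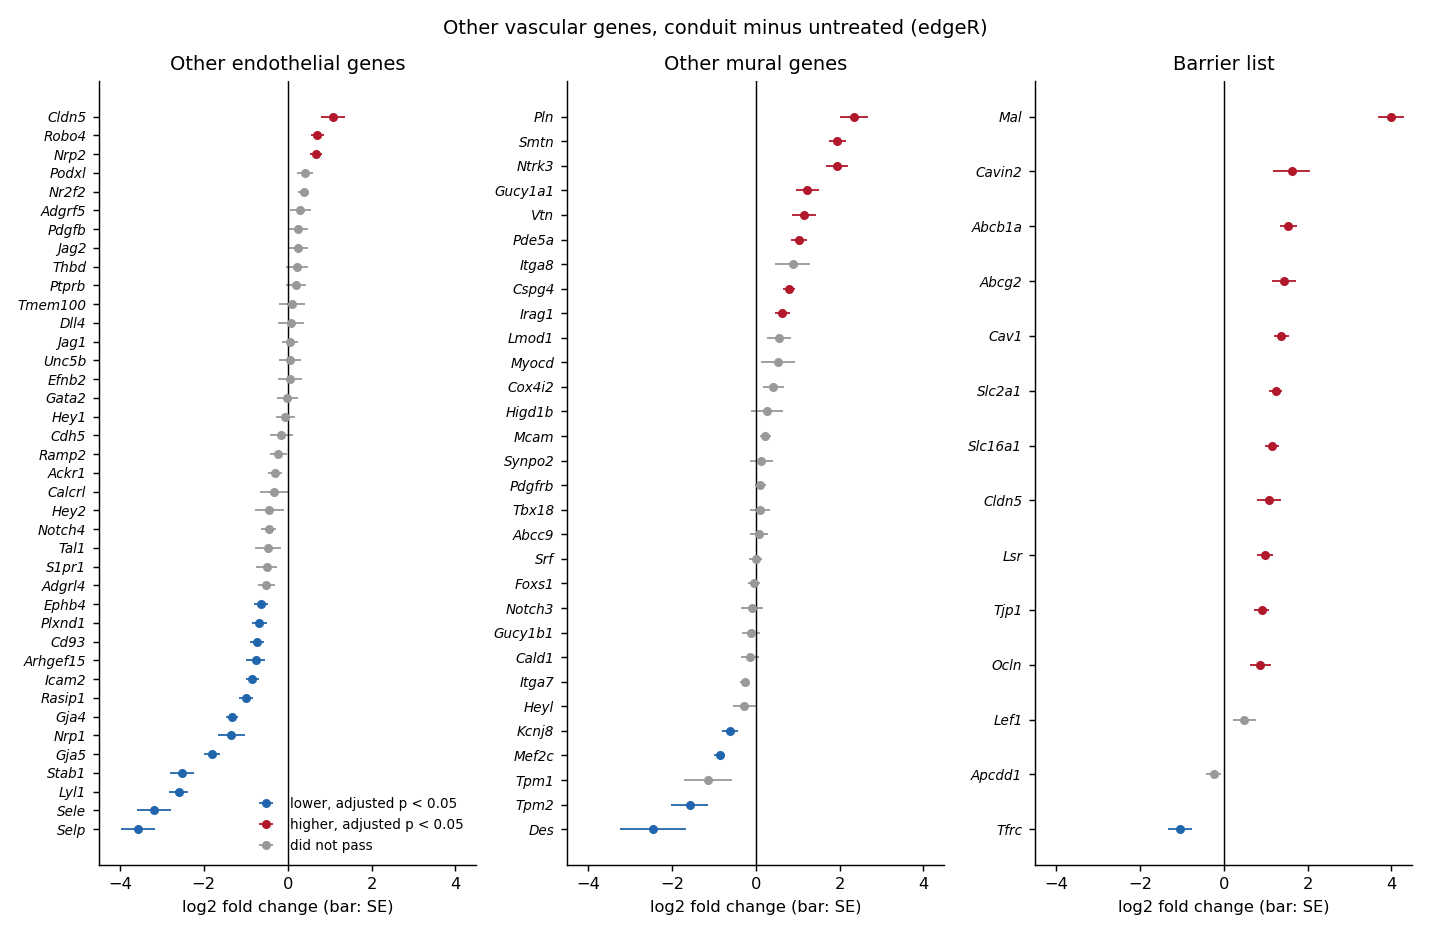
Log2 fold change, conduit minus untreated, of other endothelial genes (39 tested), other mural genes (30) and barrier genes (14), with SE bars and the colours of the calls as in the legend. Selectins Selp and Sele lie lowest among endothelial genes, Pln and Smtn highest among mural genes, and the 11 barrier genes called higher lie to the right with Mal at 3.99.

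Markers of other cells moved as well, where 26.2% of all genes tested were lower and 24.0% higher. All 10 macrophage markers (highest in CPM, without correction for length, Lyz2 and Mrc1), 4 of 5 T cell markers (Cd4 and Cd8a) and all 8 proliferation markers (Mki67 and Top2a) fell, with the sums of proliferation markers at 253 to 349 CPM untreated and 15.9 to 27.3 CPM conduit. All 6 Schwann cell and myelin markers (Pmp22 and Mbp) and 5 of 6 perineurial markers (Itgb4 and Slc2a1) rose. Of 11 fibroblast markers 2 rose, Col1a1 and Col1a2, both with overlapping groups, and 1 fell, Pdgfra. Col3a1, with Col1a1 the highest in CPM, did not pass (1.06 ± 0.39, adjusted p = 0.0572). The fibroblast sums were 10392 to 22004 CPM untreated and 18625 to 38196 CPM conduit. Platelet markers (Pf4 and Itga2b), cells that share Pecam1, Vwf, Fli1 and Mmrn1 with endothelium, summed to 107 to 164 CPM and 26.4 to 40.5 CPM. Of these Pf4, which macrophages can also express, was at 86.1 to 147 CPM and 11.8 to 23.4 CPM, and was the 1 of 5 tested that fell. The integrin genes Itga2b and Itgb3 ran from 6.94 to 21.1 CPM and from 4.86 to 13.1 CPM over all libraries, Treml1 reached 3.80 CPM, Ppbp was at 0.253 CPM or less and Gp1bb was at 0 in all libraries. None of 5 erythroid markers tested (Hba-a1 and Hba-a2) passed, and their sums ran from 1763 to 5649 CPM and from 1153 to 4854 CPM. Of 6 fat cell markers 2 rose, Cidec (2.76 ± 0.92) and Lep (4.21 ± 0.61), while Fabp4 and Adipoq, the highest in CPM, did not pass. Of 9 skeletal muscle markers (Acta1 and Ckm) 8 were called lower, with the high values in untreated replicate 1 given for their sum. The groups overlapped for Acta1, Ckm, Myl11, Myh4, Actn3 and Tnnc2, but not for Tnnt3 and Tnni2. The part of these cells in the vascular values was not tested, beyond the results given without a library.

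**Figure D5:**
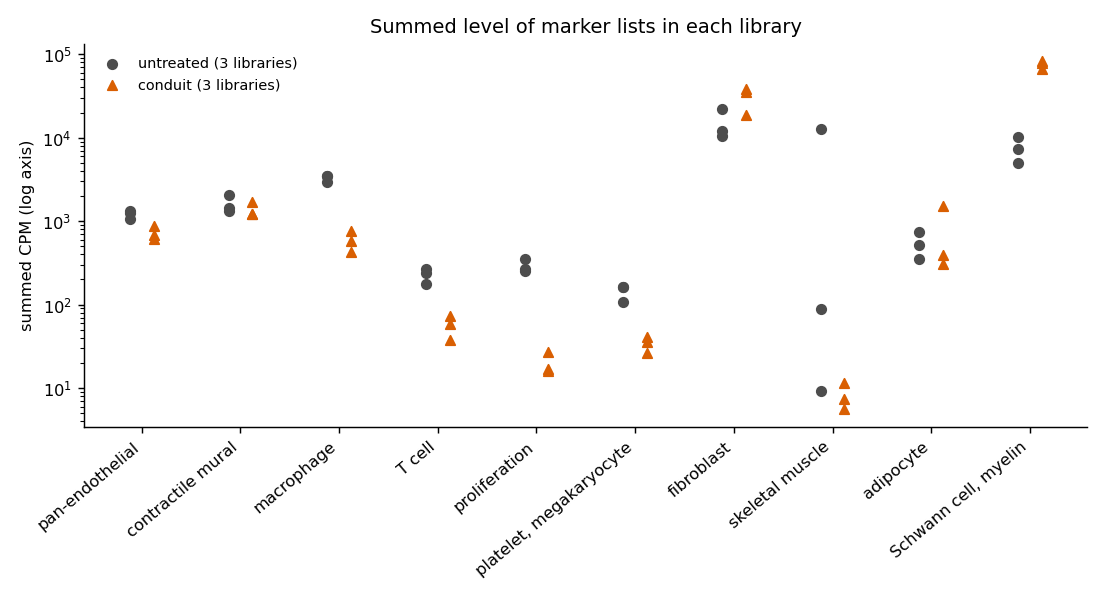
Summed CPM (log axis) of the 12 pan-endothelial and 7 contractile mural genes and of marker lists of other cells in each untreated (grey circles) and conduit library (orange triangles). The pan-endothelial sum is lower in all conduit libraries, the contractile sums overlap, and skeletal muscle markers reach 12755 CPM in untreated replicate 1.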

How the data were processed

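RNA was sequenced from rat sciatic nerve in 3 untreated and 3 conduit libraries, grouped by their labels. TRIzol extraction and mRNA enrichment preceded VAHTS Universal V10 library preparation, per the labels' protocols, which do not mention strand, so overlapping and antisense genes may not be told apart. The authors deposited raw counts per gene and FPKM values per library. The tools listed are HISAT2, HTSeq, fastp and DESeq2, and the build mRatBN7.2, per the submitters' processing notes. Their versions and roles are not given in the sources used here. Deposited FPKM equalled count over gene length and library total (tolerance 1e-04) wherever it could be checked, in 20504 genes.

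Counts were tested with edgeR 4.0.16 in R 4.3.3 (filterByExpr with a minimum count of 10, TMM, quasi-likelihood F test on group alone) on the whole table. SE was derived as the absolute log2 fold change over sqrt(F), and SD is over 3 libraries. The script was tested on simulated data. The 15 alternatives were RLE scaling, library totals, DESeq2 1.42.0, robust dispersions, every gene kept, genes kept at 5 CPM in 3 libraries, a replicate block, limma 3.58.1 on log2(FPKM + 1) or log2(FPKM + 0.1) where FPKM was at least 0.5 in 3 libraries, and each library left out. The 44 genes and the lists were chosen with earlier results of these data known. Named genes are all 44, of each further vascular list up to 3 called genes with the smallest adjusted p and the extreme in each direction, and of each marker list the 2 with the highest mean CPM. The other named genes, and the ratios, were chosen after their values were seen. The older symbols Mrvi1 and Mylpf were matched through RefSeq's gene table, and Trac was not matched. A further Schwann cell marker is not reported here. A count of 3 corresponds to 0.0606 to 0.0848 CPM.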

Additional observations from a re-analysis of the deposited data

How the results depend on the processing

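The counts of the 44 genes stayed within 1.5 times of 3 higher and 18 lower under every alternative run, at 2 to 4 higher and 17 to 27 lower, and with single libraries left out at 3 to 4 and 17 to 22. Over all genes, leaving out single libraries gave 2921 to 3774 higher and 2919 to 4108 lower. Limma on FPKM, scaled by library totals, gave 2 higher and 26 lower of the 44 genes. With log2(FPKM + 1) limma called 2044 of all 13161 genes higher and 6020 lower. The wider endothelial list had 3 genes higher, but 0 with library totals and 1 with limma on either FPKM scale, and with single libraries left out it had 3 to 4 higher and 9 to 15 lower. The mural list had 8 higher and 4 lower, 6 and 6 with library totals, 7 and 6 with limma on either FPKM scale, and 7 to 10 higher and 1 to 4 lower with single libraries left out. With the replicate number as a block, the 44 genes had 3 higher and 21 lower, with Tek (-0.52, adjusted p = 0.0252), Vwf (-0.55, 0.0318) and Cd34 (-0.52, 0.0314) added, and the mural list had 2 lower. That block gave 3622 higher and 3892 lower of all 15464 genes. Libraries with the same number deviated together with r = 0.144, -0.028 and 0.064. Untreated replicates 1 and 3 correlated best with the conduit library of their own number, and untreated replicate 2 with conduit replicate 3 (0.103). All of these r were small, so the numbers are taken as names and not as pairs.

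Signs changed only for genes that did not pass with all libraries. With library totals Vegfa was at -0.32, Vegfb at -0.19, Kdr at -0.33, Angpt2 at -0.099, Emcn at -0.30, Myl9 at -0.36 and Mylk at -0.061. With limma on log2(FPKM + 1) they were at -0.27, -0.17, -0.28, -0.10, -0.30, -0.28 and -0.039, and with log2(FPKM + 0.1) at -0.33, -0.18, -0.31, -0.11, -0.31, -0.28 and -0.041, in the same order. Mmrn2 was at 0.010 with DESeq2, 0.014 with RLE scaling and 0.0040 with the 5 CPM filter. With single libraries left out Vegfa ran from -0.16 to 0.23, Kdr from -0.11 to 0.39, Mmrn2 from -0.20 to 0.16 and Myl9 from -0.17 to 0.49. The pan-endothelial sum was at -1.15 as FPKM and the contractile sum at -0.75, and without single libraries they ran from -0.91 to -0.63 and from -0.40 to 0.011. The cause of these shifts was not tested beyond the scaling itself. Low counts limit Prox1 and Vegfd, the spread between libraries limits Mmrn1, and 3 libraries a group limit the rest.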

Other observations

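Within the vascular genes some ratios between partners separated the groups. These were picked after the values were seen and carry no test. Tie1 per Tek, on the FPKM scale, was 2.41, 2.48 and 2.29 in untreated and 1.15, 1.31 and 1.08 in conduit libraries. Angpt2 per Angpt1, the ligands with opposed effects on Tek, was 14.7, 8.56 and 10.1 in untreated and 27.7, 30.2 and 31.2 in conduit libraries, again in FPKM. Acta2 per Myh11, the general and the mature smooth muscle marker, was 3.69, 4.19 and 2.17 in CPM in untreated and 1.72, 1.53 and 1.91 in conduit libraries. In contrast Flt1 per Kdr overlapped, at 0.904, 0.665 and 0.876 FPKM per FPKM against 0.482, 0.761 and 0.620, and so did Vegfa per Vegfb, at 0.195, 0.273 and 0.392 against 0.206, 0.236 and 0.307. Ratios within a library do not depend on the scaling between libraries.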
